A study of Mus musculus with 5 samples.

Results

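Cholecystokinin (CCK), vasoactive intestinal peptide (VIP) and pituitary adenylate cyclase-activating polypeptide (PACAP) are neuropeptides that act through G protein-coupled receptors. Their genes were followed across the cell types found in dissected tissue of the mouse central amygdala (CeA), a forebrain nucleus made mostly of inhibitory neurons. The set holds 8 of the 22532 genes counted, namely the peptide genes Cck, Vip and Adcyap1 (PACAP) and the receptor genes Cckar, Cckbr, Vipr1, Vipr2 and Adcyap1r1 (the PAC1 receptor). It was chosen by gene name, as the peptides and their known receptors, with earlier results of these data known.

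CCK acts in the gut and brain as a satiety and transmitter peptide. CCKAR binds the sulfated peptide best, CCKBR is the main brain form, and both couple mainly to Gq and calcium release. VIP and PACAP are related peptides. VIPR1 and VIPR2 bind both of them with similar affinity, PAC1 prefers PACAP, and all 3 receptors couple mainly to Gs and cAMP. In the forebrain VIP marks a class of inhibitory interneurons, CCK is made by many excitatory neurons and by a class of basket cells, and PACAP is made largely by excitatory neurons.

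Nuclei came from 3 libraries of fed mice and 2 of fasted mice, each pooled from the CeA of 2 mice, a male and a female. Fed replicates 1 and 2 were wild-type C57BL/6NRj mice aged 8 weeks. Fed replicate 3 came from mice aged 12 weeks that carried Htr2a-Cre, a bacterial artificial chromosome transgene in which Htr2a regulatory sequence drives Cre, and that had received AAV-DIO-mCherry. Fasted replicates 1 and 2 were wild-type mice aged 8 weeks without food for 20 and 21 hours. Single-nucleus libraries count unique molecular identifiers (UMIs), 1 per captured transcript, with intronic reads included. Of 23839 barcodes, 7161 nuclei with 500 to 8000 genes and a mitochondrial share under 0.8% were kept, 1130 to 1734 per library. Median UMIs per nucleus ran from 6608 in fasted replicate 1 to 16367 in fasted replicate 2. The median mitochondrial share was 0.0529 to 0.136% in the fed libraries and 0.237 and 0.317% in the fasted ones, so it moved with feeding state, and its part in any fasted value was not tested. At most 1 kept barcode was shared by any pair of libraries. Replicates here are such pools, so p-values of the fasting tests measure the spread between pools of mice. Tests between groups of nuclei held library as a block and estimated the spread of a gene over all gates and libraries together. Beyond that block, the sums of different gates from 1 library were treated as independent. Their p-values therefore do not measure how far the difference of 1 gate varied from pool to pool.

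Nuclei were put into gates by raw UMIs of marker genes, and none of the 8 genes was used to gate. Inhibitory nuclei had at least 2 UMIs of Gad1 and Gad2 together, and were split by Prkcd, Calcrl, Sst, Dnah5, Tac1, Vdr, Foxp2, Rarb and Nkx2-1. Not all of these mark CeA neurons. The study placed its Rarb cluster in the amygdalostriatal area and its Foxp2 cluster among intercalated cells, both outside the CeA. It named its Nkx2-1 clusters interneurons of the basolateral amygdala. The Rarb and Foxp2 gates enter the mean of the other gates in the tests below. Inhibitory nuclei that met no threshold formed the Ungated set of 2323 nuclei, and 37 excitatory nuclei formed the Slc17a7 gate. At least 1 gene that was not used to gate followed the label in each of the Dnah5, Sst, Foxp2, Nkx2-1 and Slc17a7 gates. No such gene was set for the Prkcd or Prkcd/Calcrl gates, and not every such gene is given here. Those set for the Calcrl gate (Drd2 and Cdh9) are not given, and for the Rarb gate Pde1c and Penk are not. The label of the Calcrl gate is therefore not checked here. Nts and Tac2, which mark one lateral CeA type, had their highest mean levels in the Dnah5 gate (48.6 and 123 CPM, a gene's UMIs as a share of all UMIs of that gate and library, scaled to a total of 1000000). Ebf1 led in the Sst gate (929 CPM), Tshz1 in the Foxp2 gate (308 CPM), Lhx6 in the Nkx2-1 gate (89.7 CPM) and Neurod2 in the Slc17a7 gate (40.4 CPM). Drd1 did not lead in the Rarb gate (10.1 CPM, against 21.3 in the Foxp2 gate). CPM values are not per transcript length, so levels are compared between cells and never between genes.

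The 8 genes lie on 7 chromosomes of GRCm39. Cck is at chr9:121315695-121324863 on the minus strand, and Vipr1 is on the same chromosome at chr9:121471775-121502020 on the plus strand. Vip is at chr10:5589186-5599956, Adcyap1 at chr17:93506397-93515189, Vipr2 at chr12:116041346-116109883, Adcyap1r1 at chr6:55428849-55478436 and Cckbr at chr7:105074688-105120105, all on the plus strand, and Cckar is at chr5:53855118-53865047 on the minus strand. The counts cover whole genes, introns included.

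The peptide genes and Cckar had few UMIs, and the other receptor genes had more. The former span 8793 to 10771 bases and the latter 30246 to 68538. Introns were counted, so these totals do not rank expression between genes, and the part of gene length in them was not tested. Over all 7161 nuclei the files held 8 UMIs of Adcyap1, 87 of Vip and 181 of Cck, against 15 of Cckar, 836 of Vipr1, 873 of Cckbr, 1881 of Vipr2 and 6863 of Adcyap1r1. The plot of levels by gate and library shows that each receptor had its own order of gates.

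**Figure D1:**
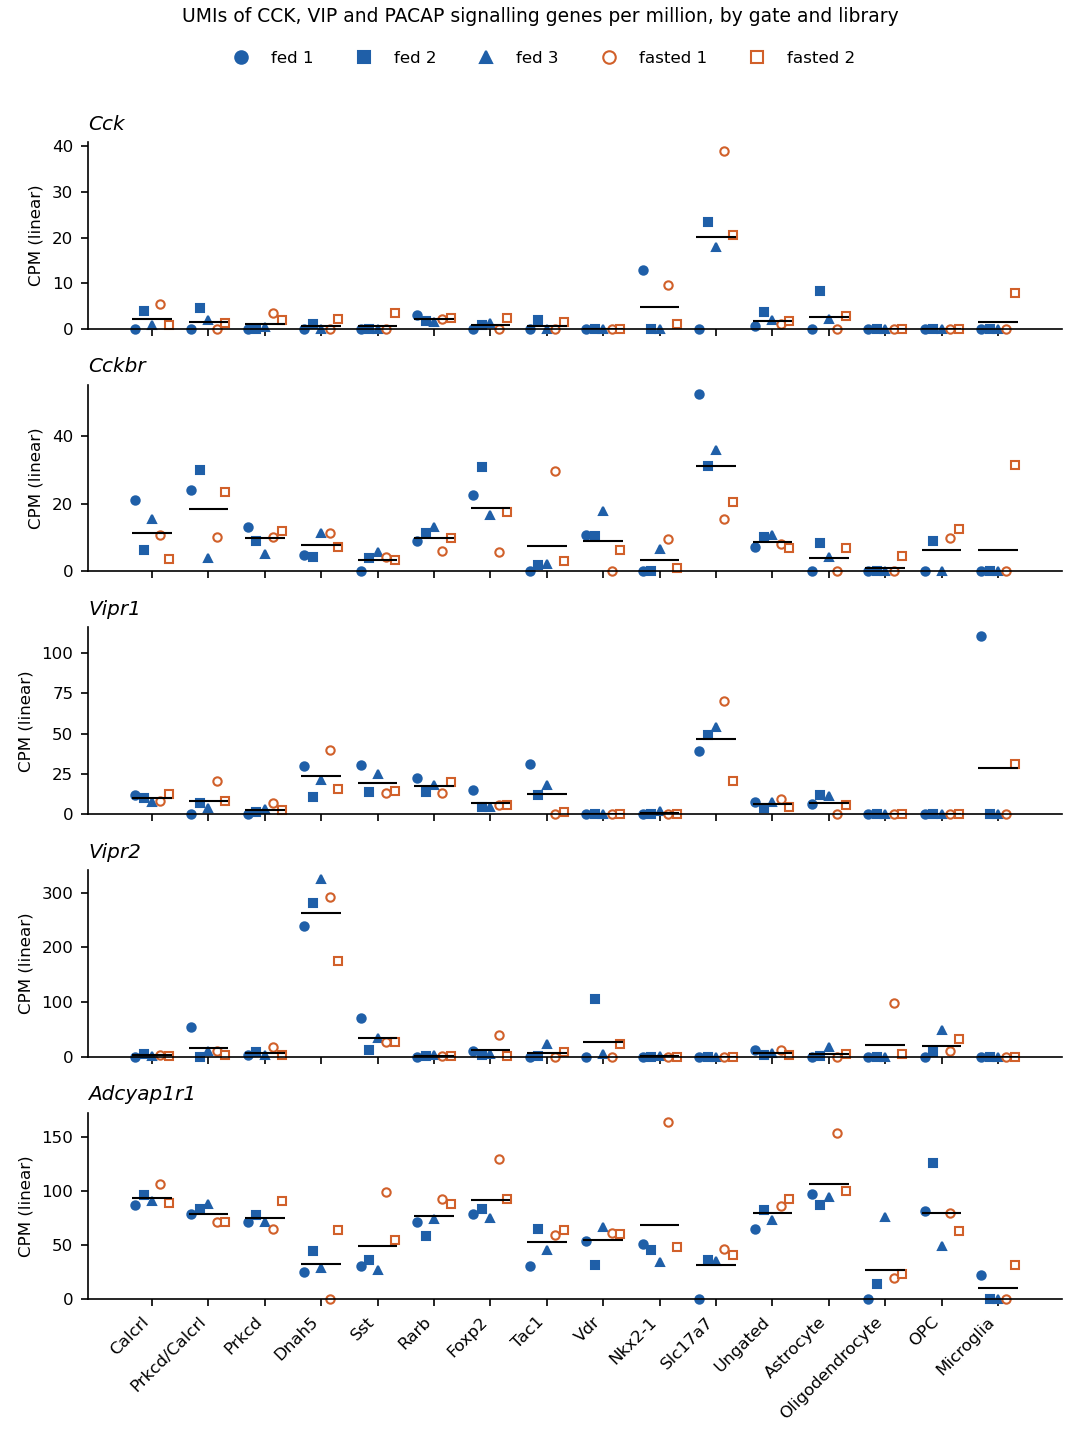
Level of Cck, Cckbr, Vipr1, Vipr2 and Adcyap1r1 in CPM (linear axes that start at 0) in each gate, with 1 point per library (filled blue for the 3 fed libraries, open orange for the 2 fasted ones) and a line at the mean. Vipr2 stands at 176 to 326 CPM in the Dnah5 gate, Cck is highest in the Slc17a7 gate at a mean of 20.2 CPM, and Adcyap1r1 is spread over all neuronal gates and astrocytes.

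Among the peptides, Cck had its highest mean level in the excitatory nuclei, which held 17 of its 181 UMIs (9.39%). The Ungated set, with 32.4% of the nuclei, held 60 of them. In the Slc17a7 gate its level was 0, 23.4 and 18.0 CPM in fed replicates 1, 2 and 3 and 39.0 and 20.6 CPM in fasted replicates 1 and 2 (20.2 ± 13.9 CPM, SD, n = 5), from 37 nuclei, and at 4000 UMIs per nucleus the mean was 8.57 CPM. The next gate in order, Nkx2-1, held 3 UMIs at 4.72 ± 6.06 CPM (SD, n = 5), and its libraries overlapped with those of the Slc17a7 gate. In every other neuronal gate the mean was 0 to 2.17 CPM, and neighbours in that order did not differ beyond their spread. A Cck UMI was present in 37.8% of Slc17a7 nuclei (14 of 37, exact 95% interval 22.5 to 55.2%) and, thinned to 4000 UMIs per nucleus, in 5.41% (2 of 37, exact interval 0.661 to 18.2%). At that depth astrocytes, which should lack Cck, gave 1.49% (3 of 202, exact interval 0.307 to 4.28%) and the Dnah5 gate 0.935% (3 of 321). The share was 0 to 2.04% over the inhibitory gates, near that of astrocytes. Such shares describe whole gates and do not exclude a few Cck nuclei within one. The 60 UMIs of the Ungated set lay in 42 nuclei. Over all nuclei, 6 had 3 or more Cck UMIs, with up to 8 in 1 nucleus. The thinned interval of the Slc17a7 gate overlapped that of astrocytes. Intervals cover counting error only. The median depth before thinning was 18148 UMIs in the Slc17a7 gate and 3841 in astrocytes.

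Vip was held by few nuclei. Of 87 Vip UMIs, 72 lay in 8 nuclei with 3 to 20 UMIs each, and the other 15 were single UMIs in 15 nuclei. The 8 nuclei came from fed replicate 1 (2 nuclei), fed replicate 2 (2) and fasted replicate 2 (4), with none in fed replicate 3 or fasted replicate 1. All 8 were inhibitory and in the Ungated set.

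The Vip nuclei held several markers of a VIP interneuron class described in cortex. Adarb2, an RNA-editing family gene that marks interneurons of caudal origin, stood at 13785 CPM over the 8 nuclei and at 749 CPM over 2311 Ungated nuclei without Vip. Prox1, a transcription factor of the same interneurons, was present in 7 of 8 nuclei and in 111 of 2311, and the cannabinoid receptor gene Cnr1 was present in 8 of 8 and in 974 of 2311. Calb2 and Htr3a, further markers of these cells, were each present in 3 of 8 nuclei, against 44 and 6 of 2311. Slc17a7 was at 0 in all 8. Other peptide genes were present in few of the 8 nuclei, with Cck in 1 (41 of 2311), Tac2 in 2 (204 of 2311) and Crh in 2 (69 of 2311). Penk did not set the Vip nuclei apart, at 83.4 against 88.6 CPM. These shares were not matched for depth. These nuclei were picked by their Vip UMIs, and their values are a description without a test.

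None of the 8 Vip nuclei had a UMI of Vipr1, Vipr2 or Cckbr, while 5 of 8 had Adcyap1r1 (91.7 CPM, against 82.6 CPM in Ungated nuclei without Vip). With 8 nuclei, a share of up to 37.5% of nuclei with a UMI would still allow a count of 0. Inhibitory nuclei rich in Adarb2 were more numerous than Vip nuclei, at 220 nuclei with 50 or more Adarb2 UMIs. Of these, 8 had a Vip UMI (3.64%) and 15 a Cck UMI (6.82%), against 0.228 and 1.82% of the other 4823 inhibitory nuclei. Vipr1 was present in 4.09% of the Adarb2-rich nuclei and 11.1% of the others, and Vipr2 in 2.73 and 8.00%, although the Adarb2-rich nuclei were deeper (median 18558 against 13177 UMIs). Neither set was split by gate. The 8.00% of nuclei with under 50 Adarb2 UMIs were 386 nuclei, and that set was not cleared of the Dnah5 gate. Of all 453 nuclei with a Vipr2 UMI, 208 were in the Dnah5 gate.

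**Figure D2:**
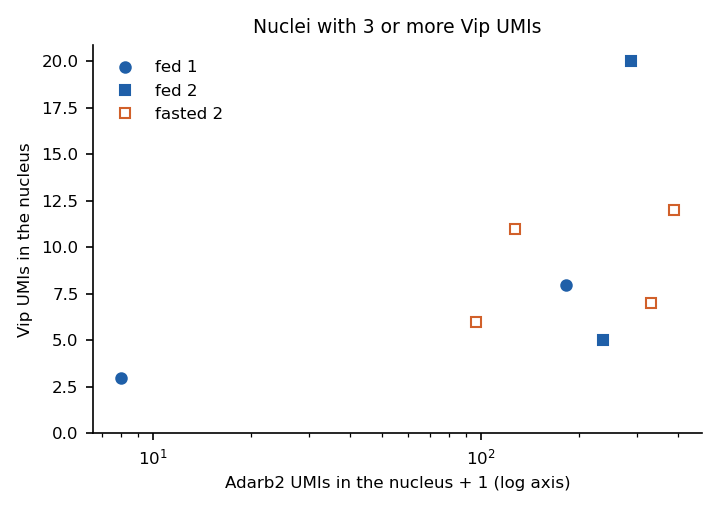
Vip UMIs against Adarb2 UMIs plus 1 (log axis) in each of the 8 nuclei with 3 or more Vip UMIs, marked by library. Of these, 7 had 50 or more Adarb2 UMIs, and the remaining nucleus had 7 among 1034 UMIs in all.

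Adcyap1 was close to absent from these nuclei, with 8 UMIs in 8 nuclei, of which 4 lay in the Ungated set and 1 in the Slc17a7 gate. No other neuronal gate held one. In the Dnah5 gate 0 of 323 nuclei had a UMI, which allows a share of up to 0.929%. Adcyap1r1, its receptor gene, had a UMI in 3552 of the 7161 nuclei.

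Among the CCK receptors, Cckar was as sparse, with 15 UMIs in 13 nuclei, of which 5 lay in the Ungated set, 2 in the Foxp2 gate, 1 each in the Dnah5 and Sst gates and 6 in nuclei outside all gates. Cckbr, the brain CCK receptor, had at least a few UMIs in every neuronal gate, at low levels. Its level in the Slc17a7 gate was 52.6, 31.2 and 36.0 CPM in fed replicates 1 to 3 and 15.6 and 20.6 CPM in the fasted libraries (31.2 ± 14.5 CPM, SD, n = 5). The Foxp2 gate followed with 22.7, 30.8 and 16.8 CPM fed and 5.64 and 17.5 CPM fasted, and the Prkcd/Calcrl gate with 24.1, 30.1 and 3.93 CPM fed and 10.2 and 23.5 CPM fasted. Libraries of neighbouring gates overlapped throughout the order, down to 3.51 ± 2.15 CPM in the Sst gate and 3.47 ± 4.39 CPM in the Nkx2-1 gate (SD, n = 5).

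Differences between gates were tested within libraries, by edgeR's quasi-likelihood test on summed UMIs with Benjamini-Hochberg adjustment over 10049 genes. Each of 8 neuronal gates with at least 10 nuclei in every library was set against the mean of the other gates. The genes Cckbr, Vipr1, Vipr2 and Adcyap1r1 passed the filter on low counts, and Cck, Cckar, Vip and Adcyap1 did not. Of the resulting 32 tests, 15 passed an adjusted p of 0.05. Between 10.6 and 29.5% of all genes did so in a gate. In the plot of gate differences Vipr2 in the Dnah5 gate lies far from the other values.

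**Figure D3:**
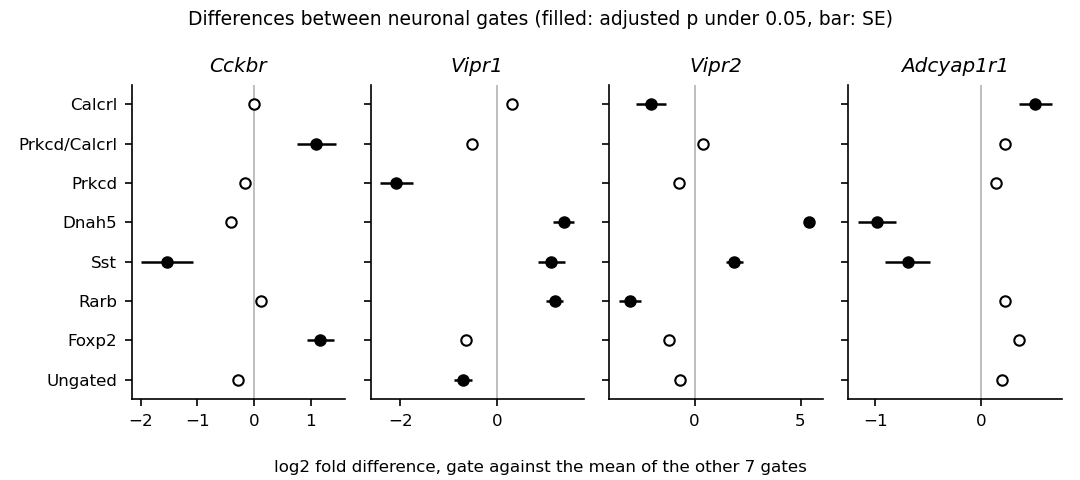
Log2 fold difference of Cckbr, Vipr1, Vipr2 and Adcyap1r1 in each of 8 neuronal gates against the mean of the other gates, with filled points for an adjusted p under 0.05 and bars for the SE of those. Vipr2 is 5.42 higher in the Dnah5 gate, and Adcyap1r1 is 0.99 lower there.

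Cckbr was higher in the Foxp2 gate by 1.17 on the log2 scale (SE 0.24, adjusted p = 0.000144). It was also higher in the Prkcd/Calcrl gate by 1.09 (SE 0.34, adjusted p = 0.0179) and fell by 1.53 in the Sst gate (SE 0.46, adjusted p = 0.0180). The call in the Prkcd/Calcrl gate was lost without fed replicate 2 or fasted replicate 2 (adjusted p of 0.153 and 0.230), and that in the Sst gate without fed replicate 1, fed replicate 2 or fasted replicate 2 (0.159, 0.0735 and 0.127). The Prkcd/Calcrl contrast had 19.2% of all genes and 1 of the 4 members called. In the Foxp2 gate 24.9% of genes were called, and Cckbr was the only one of the 4 members called there. In a fit that let in gates with at least 4 nuclei per library, Cckbr was higher in the Slc17a7 gate by 1.89 (SE 0.47, adjusted p = 0.00144) and lower in the Nkx2-1 gate by 1.97 (log2 -1.97, SE 0.62, adjusted p = 0.00944), where 22.3 and 31.5% of genes were called. The call in the Sst gate was lost in that fit (adjusted p = 0.0774). The Prkcd gate holds nuclei with more Prkcd than Calcrl, Dnah5 or Sst UMIs that did not enter the Prkcd/Calcrl gate. Cckbr stood there at 9.87 ± 3.02 CPM (SD, n = 5), and its difference of -0.16 did not pass the test.

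Vipr2 separated the Dnah5 gate from all the others. Its level there was 239, 281 and 326 CPM in fed replicates 1, 2 and 3 and 292 and 176 CPM in fasted replicates 1 and 2 (263 ± 57.6 CPM, SD, n = 5). All 5 libraries lay above every library of every other neuronal gate, the highest of which was 105.1 CPM in the Vdr gate of fed replicate 2. The next gate in order was Sst at 34.3 ± 22.4 CPM, and below it neighbours did not differ beyond their spread. Vipr2 was higher in the Dnah5 gate by 5.42 on the log2 scale (SE 0.19, adjusted p = 5.44e-26; 6.05 without fed replicate 1), where 18.4% of genes and 3 of the 4 members were called. The Dnah5 gate held 4.51% of the nuclei and 70.2% of all Vipr2 UMIs. The Slc17a7 gate held none.

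Within the Dnah5 gate Vipr2 was not uniform. A Vipr2 UMI was present in 61.1, 54.8 and 79.7% of its nuclei in the fed libraries and in 69.8 and 52.9% in the fasted ones, with up to 31 UMIs in 1 nucleus. At 4000 UMIs per nucleus the share was 47.7% (153 of 321, exact 95% interval 42.1 to 53.3%). At that depth astrocytes gave 1.49% (3 of 202) and microglia 0 of 42, which allows up to 7.14%. Oligodendrocyte precursors (OPC) gave more, at 14.3% (9 of 63, exact interval 6.75 to 25.4%). Their mean level was 20.0 ± 20.1 CPM (SD, n = 5), from 11 UMIs. Of 214 nuclei with 3 or more Vipr2 UMIs anywhere, 149 (69.6%) were in the Dnah5 gate, 13 in the Sst gate and 25 in the Ungated set. Those 25 had more UMIs of Dnah5 (117 against 11.5 CPM), Nts (91.1 against 7.25 CPM) and Tac2 (94.7 against 17.5 CPM) than 2228 Ungated nuclei without Vipr2. Markers of other types were higher in them too, with Prkcd at 40.1 against 11.5 CPM, Sst at 43.7 against 13.9 CPM and Ebf1 at 557 against 372 CPM. Il1rapl2 was lower, at 47.4 against 416 CPM. These values describe the 25 nuclei and are not a test.

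Vipr1 also had a high level in the Dnah5 gate, in addition to the Sst and Rarb gates. Its level there was 29.9, 10.4 and 21.4 CPM fed and 39.9 and 15.4 CPM fasted. In the Sst gate it was 30.6, 13.4 and 25.1 CPM fed and 13.0 and 14.2 CPM fasted, and in the Rarb gate 22.1, 13.8 and 18.3 CPM fed and 13.4 and 19.7 CPM fasted. These 3 gates overlapped with each other. Vipr1 was higher in each of them than in the mean of the other gates, by 1.37 on the log2 scale in the Dnah5 gate (SE 0.22, adjusted p = 3.75e-06), 1.11 in the Sst gate (SE 0.29, adjusted p = 0.00441) and 1.18 in the Rarb gate (SE 0.18, adjusted p = 1.45e-06). The Sst call was lost without fed replicate 3 (adjusted p = 0.0786).

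Vipr1 fell by 2.08 in the Prkcd gate (SE 0.34, adjusted p = 2.6e-06, and by 1.41 without fed replicate 1), where it was at 0, 1.39 and 2.86 CPM in the fed libraries and 6.71 and 2.29 CPM in the fasted ones. It fell by 0.71 in the Ungated set (SE 0.19, adjusted p = 0.00274), a call lost without fed replicate 1 or fasted replicate 2 (adjusted p of 0.651 and 0.0900). The Prkcd and Ungated contrasts had 29.5 and 29.1% of all genes called and this 1 member each. In the Slc17a7 gate Vipr1 was at 39.5, 49.4 and 53.9 CPM fed and 70.2 and 20.6 CPM fasted, from 36 UMIs, and the Vdr gate held none in 62 nuclei. Because a gate at 0 leaves the fitted differences of all the others without a bound, Vipr1 and Vipr2 are given there as levels only. Outside neurons, 8 of 77 microglia had a Vipr1 UMI (10.4%, exact interval 4.59 to 19.4%), all in fed replicate 1 (5 UMIs) and fasted replicate 2 (4 UMIs), and 1 of 42 at 4000 UMIs per nucleus, while oligodendrocytes and their precursors (OPC) held none.

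Vipr2 was low in the Rarb gate, where Vipr1 was higher than in the other gates. It was at 0, 0.417 and 2.32 CPM in the fed libraries of the Rarb gate and 1.49 and 1.33 CPM in the fasted ones. Vipr2 fell by 3.04 on the log2 scale in the Rarb gate (SE 0.52, adjusted p = 1.49e-05) and by 2.06 in the Calcrl gate (SE 0.69, adjusted p = 0.0444), while it was higher in the Sst gate by 1.88 (SE 0.41, adjusted p = 0.000672). The mean of the other gates includes the Dnah5 gate, where Vipr2 was 5.42 higher, and this raises that mean. Contrasts without the Dnah5 gate were not fitted. In the Calcrl gate the Vipr1 difference of 0.30 did not pass the test (adjusted p = 0.621), and no test compared the receptors with each other. The Rarb call was lost without fed replicate 1 (log2 -2.20, adjusted p = 0.0559) and kept with gates per 10000 UMIs at -1.76, the Sst call without fasted replicate 2 (0.0791), and the Calcrl call without any of fed replicates 1 and 3 and fasted replicates 1 and 2 (0.381, 0.234, 0.0958 and 0.0811, with log2 -1.22 without fed replicate 1). At 4000 UMIs per nucleus the Sst and Calcrl calls were lost as well, and the Calcrl call also with gate thresholds raised by 1 UMI or set per 10000 UMIs and with a mitochondrial share under 0.5%. Of the 4 members, 2 were called in the Rarb gate and 2 in the Calcrl gate, with 18.5 and 10.6% of all genes called. All 4 were called in the Sst gate, with 13.3% of all genes.

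Adcyap1r1 was the most broadly detected of the set, with a UMI in 49.6% of all nuclei. Among neuronal gates it ran from 93.9 ± 7.78 CPM in the Calcrl gate and 92.1 ± 22.0 CPM in the Foxp2 gate down to 32.7 ± 23.9 CPM in the Dnah5 gate and 32.1 ± 18.4 CPM in the Slc17a7 gate (SD, n = 5). Neighbours in this order overlapped. Astrocytes, which respond to PACAP, stood at 97.1, 86.9 and 94.5 CPM fed and 154 and 100 CPM fasted, and OPC at 80.1 ± 29.0 CPM. Oligodendrocytes were lower at 26.7 ± 29.2 CPM, and microglia held 5 UMIs in 77 nuclei.

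The Dnah5 gate, highest in Vipr2, was low in Adcyap1r1. Its level was 25.2, 44.8 and 29.1 CPM in the fed libraries and 64.3 CPM in fasted replicate 2. In fasted replicate 1 there were 0 UMIs in 63 nuclei and 526849 UMIs, which allows up to 5.69 CPM. Adcyap1r1 fell by 0.99 on the log2 scale in the Dnah5 gate (SE 0.18, adjusted p = 3.41e-05), and without fasted replicate 1 it fell by 0.77 (adjusted p = 1.91e-05). It also fell by 0.69 in the Sst gate (SE 0.21, adjusted p = 0.0191), a call lost without any of fed replicates 1, 2 and 3 and fasted replicate 2 (adjusted p of 0.115, 0.138, 0.137 and 0.0935), at 4000 UMIs per nucleus or with gates of 4 nuclei let in. It was higher in the Calcrl gate by 0.52 (SE 0.16, adjusted p = 0.0260), a call lost without fed replicate 2 or 3 (adjusted p of 0.103 and 0.164), with gate thresholds raised by 1 UMI or with a mitochondrial share under 0.5%.

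In the Dnah5 gate Vipr2 and Adcyap1r1 were seldom counted in the same nucleus. At 4000 UMIs per nucleus, 153 of 321 nuclei had Vipr2, 28 had Adcyap1r1 and 3 had both, so that Adcyap1r1 was present in 1.96% of nuclei with Vipr2 and 14.9% of those without. Vipr1 had the opposite relation, present in 13.1% of nuclei with Vipr2 and 5.95% of those without, and no nucleus had both Vipr1 and Adcyap1r1. Cells of a library are not replicates, and these shares carry no test. The gate was not uniform in other genes. Cdh9, a cadherin gene that also names a cluster of the study together with Calcrl and was chosen here after its values were seen, stood at 21.8 CPM over the 208 nuclei with a Vipr2 UMI and at 154 CPM over the 115 without one. Penk, the proenkephalin gene, stood at 35.6 and 84.4 CPM and Prkcd at 80.7 and 125 CPM, with the order turned in fasted replicate 1 for both and in fed replicate 2 for Prkcd. A mixture of cell types in the gate and exclusion within 1 type cannot be told apart here.

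The same held in the libraries one by one at full depth. Adcyap1r1 stood at 11.5, 24.4 and 14.9 CPM in Vipr2 nuclei of fed replicates 1, 2 and 3 and at 42.0, 75.1 and 77.2 CPM in the nuclei without Vipr2. In fasted replicate 2 the values were 34.0 and 96.6 CPM, and in fasted replicate 1 both were 0. Vipr1 was higher with Vipr2 than without it in 4 of 5 libraries, from 17.4 to 48.7 CPM against 0 to 6.99 CPM, with the exception of fasted replicate 1 (36.2 against 49.8 CPM). Tac2, a tachykinin peptide gene, was at 116 to 193 CPM with Vipr2 and at 0 without it in the fed libraries. Nts, the neurotensin gene, was at 71.6 to 109 CPM with Vipr2 and 5.18 to 16.8 CPM without it in the same libraries. In fasted replicate 1 the nuclei without Vipr2 had 114 CPM of Tac2 and 35.6 CPM of Cdh9, where the other libraries had 0 to 9.09 CPM of Tac2 and 122 to 255 CPM of Cdh9. In nuclei with Vipr2, Cdh9 was at 10.4 to 28.6 CPM in all 5 libraries. That library was also the shallowest, and the part of its depth or mixture of nuclei in the missing Adcyap1r1 was not tested.

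**Figure D4:**
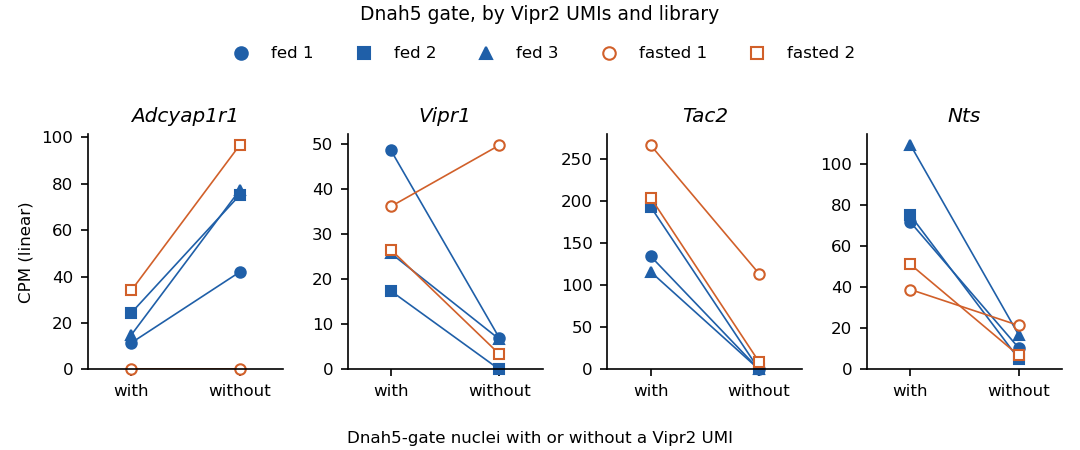
Level of Adcyap1r1, Vipr1, Tac2 and Nts in CPM (linear axes that start at 0) in Dnah5-gate nuclei with and without a Vipr2 UMI, with 1 line per library. Adcyap1r1 is lower with Vipr2 in 4 of 5 libraries and at 0 in both sets in fasted replicate 1, while Tac2 and Nts are higher with Vipr2 in all 5.

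Fasting against feeding gave no call for the 6 members that could be tested. Cckar and Adcyap1 passed the filter on low counts nowhere, and Vip and Cck only in the Ungated set and over all inhibitory neurons. Each gate with at least 10 nuclei in every library was fitted alone, which gave 27 tests of members in gates and 6 over all inhibitory neurons. By edgeR's quasi-likelihood test 0 of 27 were called and 2 had an unadjusted p under 0.05, and the likelihood ratio test and DESeq2 also called 0. Over all genes 60 calls were made in 11 gates. The shares called were 0.444% in OPC, 0.267% in the Foxp2 gate, 0.14% in Prkcd/Calcrl, 0.0523% in Prkcd, 0.049% in Calcrl, 0.0276% in Sst, 0.0189% in Rarb, 0.0115% in Dnah5, 0.00812% in the Ungated set and 0% in astrocytes and oligodendrocytes, and 0 of 13607 genes were called over all inhibitory neurons (708 at an unadjusted p under 0.05). By the study's supplementary legend, fed and fasted libraries of the same number were prepared together, and with the replicate number as a block the calls over all genes came to 940 and those of the members stayed at 0.

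Adcyap1r1 had the smallest p of the set. Over all inhibitory neurons it stood at 64.2, 72.3 and 69.0 CPM in the fed libraries and 82.8 and 84.1 CPM in the fasted ones (log2 0.26, SE 0.12, edgeR adjusted p = 0.9999). In the Sst gate it was at 30.6, 36.3 and 27.1 CPM fed and 99.8 and 54.8 CPM fasted (log2 1.09, SE 0.38, edgeR adjusted p = 0.582, unadjusted 0.00875). In the Rarb gate it was at 71.4, 58.8 and 74.4 CPM fed and 92.9 and 88.3 CPM fasted (log2 0.41, SE 0.18, edgeR adjusted p = 0.99993, unadjusted 0.0453). These are the 2 gates with an unadjusted p under 0.05. In the Calcrl gate the fed libraries stood at 87.1, 96.4 and 90.7 CPM and the fasted ones at 106 and 88.9 CPM, and they overlapped.

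Vipr2 in the Dnah5 gate overlapped between the feeding states, with a fold change of -0.32 on the log2 scale (SE 0.25, adjusted p = 0.9497). It was -0.73 without fasted replicate 1 and turned to 0.039 without fasted replicate 2. Cckbr over all inhibitory neurons was at 9.26, 11.3 and 10.9 CPM fed and 8.19 and 8.61 CPM fasted (log2 -0.36, SE 0.18, edgeR adjusted p = 0.9999). Vipr1 was at 10.98, 6.54 and 10.3 CPM fed and 11.7 and 7.84 CPM fasted, and these overlapped. Whether a fasting effect differed between gates was tested as an interaction, which called 0 of 32 member tests and 1 of 10049 genes, in the Dnah5 gate (0.00995%). Without fasted replicate 2 the fasted arm is 1 library, assumed to vary like the others, and Adcyap1r1 was then called lower in the Dnah5 gate, where that library had 0 UMIs, and higher in the Sst gate (log2 2.71, adjusted p = 0.00574, edgeR).

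**Figure D5:**
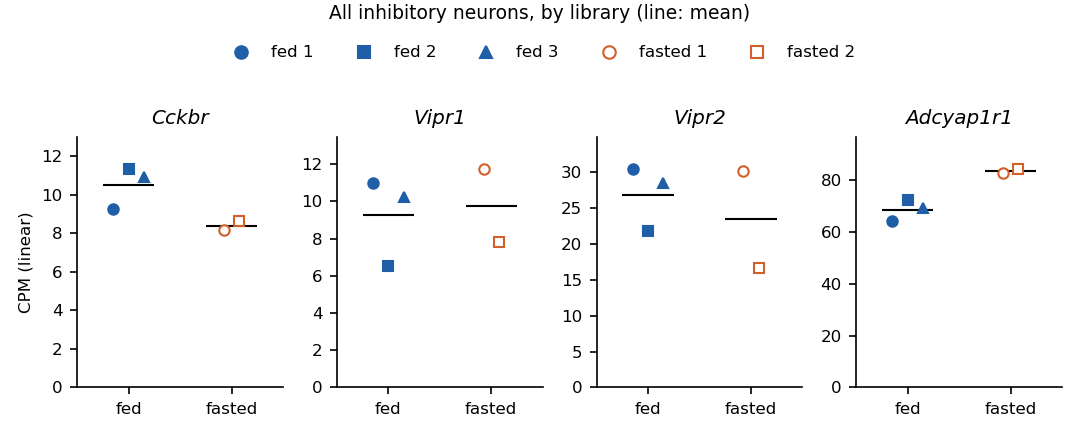
Level of Cckbr, Vipr1, Vipr2 and Adcyap1r1 in CPM (linear axes that start at 0) over all inhibitory neurons, with 1 point per library and a line at the mean of each feeding state. The Adcyap1r1 points are 64.2 to 72.3 CPM fed and 82.8 and 84.1 CPM fasted, and none of the 4 genes passed the test.

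Genes that act below these receptors were counted in the same contrasts. Of 27 cAMP pathway genes tested, 4 were higher and 6 lower in the Dnah5 gate (median log2 difference 0.04, against 0.01 over all genes), 9 higher and 5 lower in the Rarb gate, and 4 higher and 11 lower in the Prkcd gate. Over all genes 18.4, 18.5 and 29.5% were called in these gates, and nothing particular to the list is read from its counts. In the Dnah5 gate Rapgef3, a cAMP-activated exchange factor for Rap (EPAC1), was 2.20 higher (adjusted p = 7.76e-13, edgeR), while Pde4b, a cAMP phosphodiesterase, fell by 1.65 (adjusted p = 3.97e-08) and Rapgef4 (EPAC2) fell by 0.88 (adjusted p = 1.15e-10). Rapgef3 was also 2.09 higher in the Sst gate. Of 15 receptor partner genes tested, 3 were higher and 2 lower in the Dnah5 gate (median -0.08, with 18.4% of all genes called). Gnas, which encodes the Gs subunit, was 1.44 higher in the Dnah5 gate (adjusted p = 1.06e-13) and 1.48 higher in the Sst gate (5.24e-13), while Gnal, its olfactory-type paralog, fell by 0.72 in the Dnah5 gate (1.56e-07) and was 0.74 higher in the Rarb gate (9.69e-10).

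Of 17 genes of the Gq and calcium pathway, which the CCK receptors use, 4 were higher and 5 lower in the Foxp2 gate and 5 higher and 7 lower in the Prkcd/Calcrl gate, where 24.9 and 19.2% of all genes were called. Plcb4, a phospholipase C that Gq activates, was 1.23 higher in the Foxp2 gate (adjusted p = 7.15e-10, edgeR), while Dgkg, a diacylglycerol kinase, fell by 1.197 (1.13e-13) in the same gate and Trpc4, a cation channel, fell by 0.99 (1.32e-08). Trpc5, a receptor-operated cation channel, was 2.89 higher in the Dnah5 gate (5.06e-20) and 2.95 higher in the Sst gate (4.84e-19), and fell by 3.27 in the Prkcd/Calcrl gate (2.87e-09). Of 16 genes of peptide processing and secretion, 1 was higher and 6 lower in the Dnah5 gate (median -0.12, with 18.4% of all genes called). The higher one was Pam, the enzyme that amidates peptides such as VIP and CCK, by 1.06 (edgeR adjusted p = 3.29e-12). Pam was also 1.99 higher in the Sst gate (8.40e-21) and 0.68 higher in the Ungated set (2.78e-08). It fell in the Prkcd, Prkcd/Calcrl and Calcrl gates. Of 9 related peptides and receptors only Gipr, the receptor of the gut hormone GIP, passed the filter. It was 1.18 higher in the Foxp2 gate (0.00177) and 1.13 higher in the Calcrl gate (0.0168). Gipr fell by 1.37 in the Dnah5 gate (0.0208) and by 0.81 in the Ungated set (0.00794). Of 6 interneuron marker genes tested, 5 were higher and 1 lower in the Ungated set, where 29.1% of all genes were called, with Adarb2 2.60 higher (4.37e-12). Adarb2 was also 3.80 higher in the Foxp2 gate (1.11e-17). In the fasting fits 2 list genes were called, Pcsk1n (log2 2.72) and Adarb2 (log2 0.89), both in OPC.

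For each member with at least 5 CPM in a neuronal gate, the genes with the most similar pattern were taken by Pearson's r of mean log2(CPM + 1) over 12 neuronal gates, among 11893 genes. They describe these gates and carry no test, because the gates share libraries. For Vipr2 they were Tac2 (r = 0.917), Itga4 (0.904) and Pdzd8 (0.896), all highest in the Dnah5 gate. For Cck they were Arhgap15 (0.974), Zfp697 (0.959) and Mapk7 (0.9502), and for Vipr1 Inka2 (0.952), Lyzl4 (0.937) and Dag1 (0.906), all highest in the Slc17a7 gate of 37 nuclei. For Cckbr they were Gal3st3 (0.934), Actl6a (0.926) and St6galnac3 (0.907), also highest there. For Adcyap1r1 the best values were lower, with Map2k3 (0.847), Fgfr1 (0.840) and Dlg2 (0.834).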

How the data were processed

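Nuclei of dissected CeA tissue were sequenced with 10x 3′ v3.1 chemistry in 5 libraries. The deposited values are raw UMI counts per gene and barcode, made by the authors with Cell Ranger 5.0.0 (file header) on GRCm39 with Ensembl 105, introns included. The submitters' processing notes instead name Cell Ranger 2.1.1 and mm10. The gene identifiers of all 8 members were the same in GENCODE vM39.

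Nuclei had 500 to 8000 genes and a mitochondrial share under 0.8%. Gate thresholds were set on marker genes without the 8 members. Scrublet (scanpy 1.11.5) marked 61 nuclei (0.852%) as doublets, which were kept. UMIs were summed per gate and library and fitted with edgeR 4.0.16 (R 4.3.3, TMM, filterByExpr, quasi-likelihood test, Benjamini-Hochberg, threshold 0.05), with library as a block between gates and no block for fasting, and with DESeq2 1.42.0 as an alternative. The SE is the log2 fold change divided by the square root of F. The script was tested on simulated counts. Shares were taken after thinning to 4000 UMIs, which left 6282 nuclei. Zeros carry an upper limit of 3 counts, and intervals are exact at 95%.

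The members and gene lists were chosen with earlier results of these data known. Named genes were all members, the 3 genes most similar to each, and at most the 3 largest called changes of each list. The study's supplementary legend places fed and fasted libraries of the same number in 1 preparation batch and a further fed library in its own, which was taken to be fed replicate 3 by elimination, since the legend numbers it differently. Deviations of same-numbered libraries from their group means correlated at 0.105 to 0.437 over 5 gates. Alternatives changed the test, scaling, filter, gates, doublets, mitochondrial bound, depth and libraries.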

Additional observations from a re-analysis of the deposited data

How the results depend on the processing

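Of the 15 called gate differences, 6 were called in every alternative counted (Vipr2 in the Dnah5 gate, Vipr1 in the Dnah5, Rarb and Prkcd gates, Adcyap1r1 in the Dnah5 gate, Cckbr in the Foxp2 gate). At 4000 UMIs per nucleus Vipr1 and Cckbr did not enter these contrasts, so their calls were not tested at equal depth. Cckbr in the Foxp2 gate was also not tested with at least 20 nuclei, since fasted replicate 1 had 19 there. None of the 15 changed direction in 201 values, of which 30 missed the threshold. Those values leave out Vipr1 and Vipr2 in the fit with gates of at least 4 nuclei, where a gate at 0 leaves no bound. In that fit Vipr1 was not called in the Prkcd gate (log2 -1.30) or the Ungated set, where it turned to 0.0025. Vipr2 was not called in the Rarb (-2.07) or Calcrl gate (-1.14) there. The other called differences of these genes were called in it too. Because the bound is missing, neither outcome of this fit is read as a check on the Vipr1 and Vipr2 calls. The number of called members was 15 of 32, 9 to 16 without 1 library, and with fewer tests possible 8 of 24 with gate thresholds raised by 1 UMI, 8 of 24 with a mitochondrial share under 0.5%, 7 of 16 at 4000 UMIs per nucleus and 9 of 20 with at least 20 nuclei per sum. Calls over all genes in these contrasts were 16423, and 8758 at 4000 UMIs. Fasting called 0 members under every alternative. Its calls over all genes moved from 60 to 535 by the likelihood ratio test, 102 by DESeq2, 902 without a filter, 95 with gates per 10000 UMIs, 37 after thinning, 13 with at least 20 nuclei, 940 with the replicate block and 611 with both replicates 1 left out (the last chosen after seeing the data, as was the limit of 4 nuclei), and ran from 11 to 208 without 1 library. The cause was not tested. The interaction of fasting with gate called 1 gene, 0 to 96 without 1 library, 72 by the likelihood ratio test, 11 by DESeq2, 273 without a filter, 30 with gates per 10000 UMIs, 5 without doublets, 3 under the lower mitochondrial bound, and 2 with raised thresholds, thinning or at least 20 nuclei. It called 0 to 2 members without 1 library, the 2 being Adcyap1r1 in the Dnah5 and Sst gates (log2 2.71 in the Sst gate, adjusted p = 0.00574, edgeR) without fasted replicate 2. The uncalled Vipr2 fold change on fasting ran from -0.73 to 0.039 in the Dnah5 gate and from -0.76 to 0.20 over all inhibitory neurons without 1 library, above 0 only without fasted replicate 2. The mean Vipr2 level in the Dnah5 gate was 321 CPM with gates per 10000 UMIs, against 263.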
